A study of Sus scrofa with 23 samples.

Results

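The transcripts described here are those of splicing factors and RBM proteins in porcine oocytes and embryos. Members were the genes of the deposited table whose Ensembl symbol begins with SRSF, HNRNP, SF3A or SF3B, SNRP, U2AF, PRPF or RBM, and they numbered 70 of 8603 genes. The RBM group held 24 of them, HNRNP 11, SRSF 10, SNRP and PRPF 8 each, SF3 6 and U2AF 3. A porcine gene list gave 91 symbols that match the same rule, so the table holds the larger share of these families and not all of them. Symbols were chosen by name alone, and some RBM proteins act outside splicing.

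The 23 libraries covered 3 groups of embryos, each library being the only one of its condition analysed here. IV-D embryos were fertilized in vivo and collected from Duroc sows, and all had 1 Duroc boar as sire. NT-D embryos were somatic cell clones of ear fibroblasts of a Duroc boar, the same animal as that sire, and NT-LW embryos were clones of ear fibroblasts of a Laiwu boar, with each boar 1 year old. The stages were the MII oocyte (OC), the 1-cell (1C), 2-cell (2C), 4-cell (4C) and 8-cell (8C) embryo, the morula (MO) and 2 cut parts of the blastocyst. The part called IT held inner cell mass together with trophectoderm, and the part called TE held trophectoderm alone. Oocytes of hybrid sows, matured in vitro, received the nuclei in both clone groups, so their single library (NT-D-OC) stood as the oocyte stage of both. Clones were cultured in vitro and were all male, while IV-D pools held embryos of either sex, so method of production, culture, oocyte source and sex cannot be told apart between clones and IV-D embryos. Each library came from a pool of oocytes or embryos, and no difference below could be set against replicate error. The study also sequenced further pools of some NT-D and IV-D stages, which were not analysed here.

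Splicing removes introns from a new transcript. Small nuclear ribonucleoproteins, the U snRNPs, recognize the ends of the intron and the branch point and are built on a ring of Sm proteins. SR proteins mostly bind exons and promote their use, hnRNP proteins often oppose them, U2AF marks the 3′ end of the intron, the SF3 complexes hold U2 snRNP at the branch point, and PRPF proteins belong to the later steps. A fertilized egg runs on stored maternal RNA until its own genome is activated, and from then on new transcripts have to be spliced.

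Values are FPKM, fragments per kilobase of gene scaled by library depth, as deposited by the authors. A gene was counted as higher or lower between 2 libraries when the difference of log2(FPKM + 1) exceeded 1 and either library had an FPKM of 1 or more. The counts over the 70 members per comparison, on FPKM as deposited, stand beside the shares of all 8603 genes by the same rule. Counts after scaling the libraries by median ratios have no such share beside them, and show only how far a count depends on the scale. Whole fragments could be recovered from the steps between FPKM values, with a depth of 14952784 to 22991067 per library. Ratios of FPKM are given with 95% exact (Clopper-Pearson) intervals from those fragments, which cover counting error only.

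Members at an FPKM of at least 1 numbered 60 to 69 of 70 per library, and 56 members reached that level in all 23. They took 0.751% to 2.12% of the fragments of the table, the highest share being that of the IV-D 4C library. A list of oocyte markers (6 of 8 in the table) summed to an FPKM of 403 to 3063 in the 11 libraries up to 4C and to 0.710 to 239 in the 12 later ones. Trophectoderm markers (7 of 8) summed to 0.712 to 29.7 and to 8.81 to 2922 in the same order. Fibroblast markers (5 of 9) stayed between 0.0920 and 31.5, and the only cumulus marker in the table was at 0 to 18.8.

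**Figure D1:**
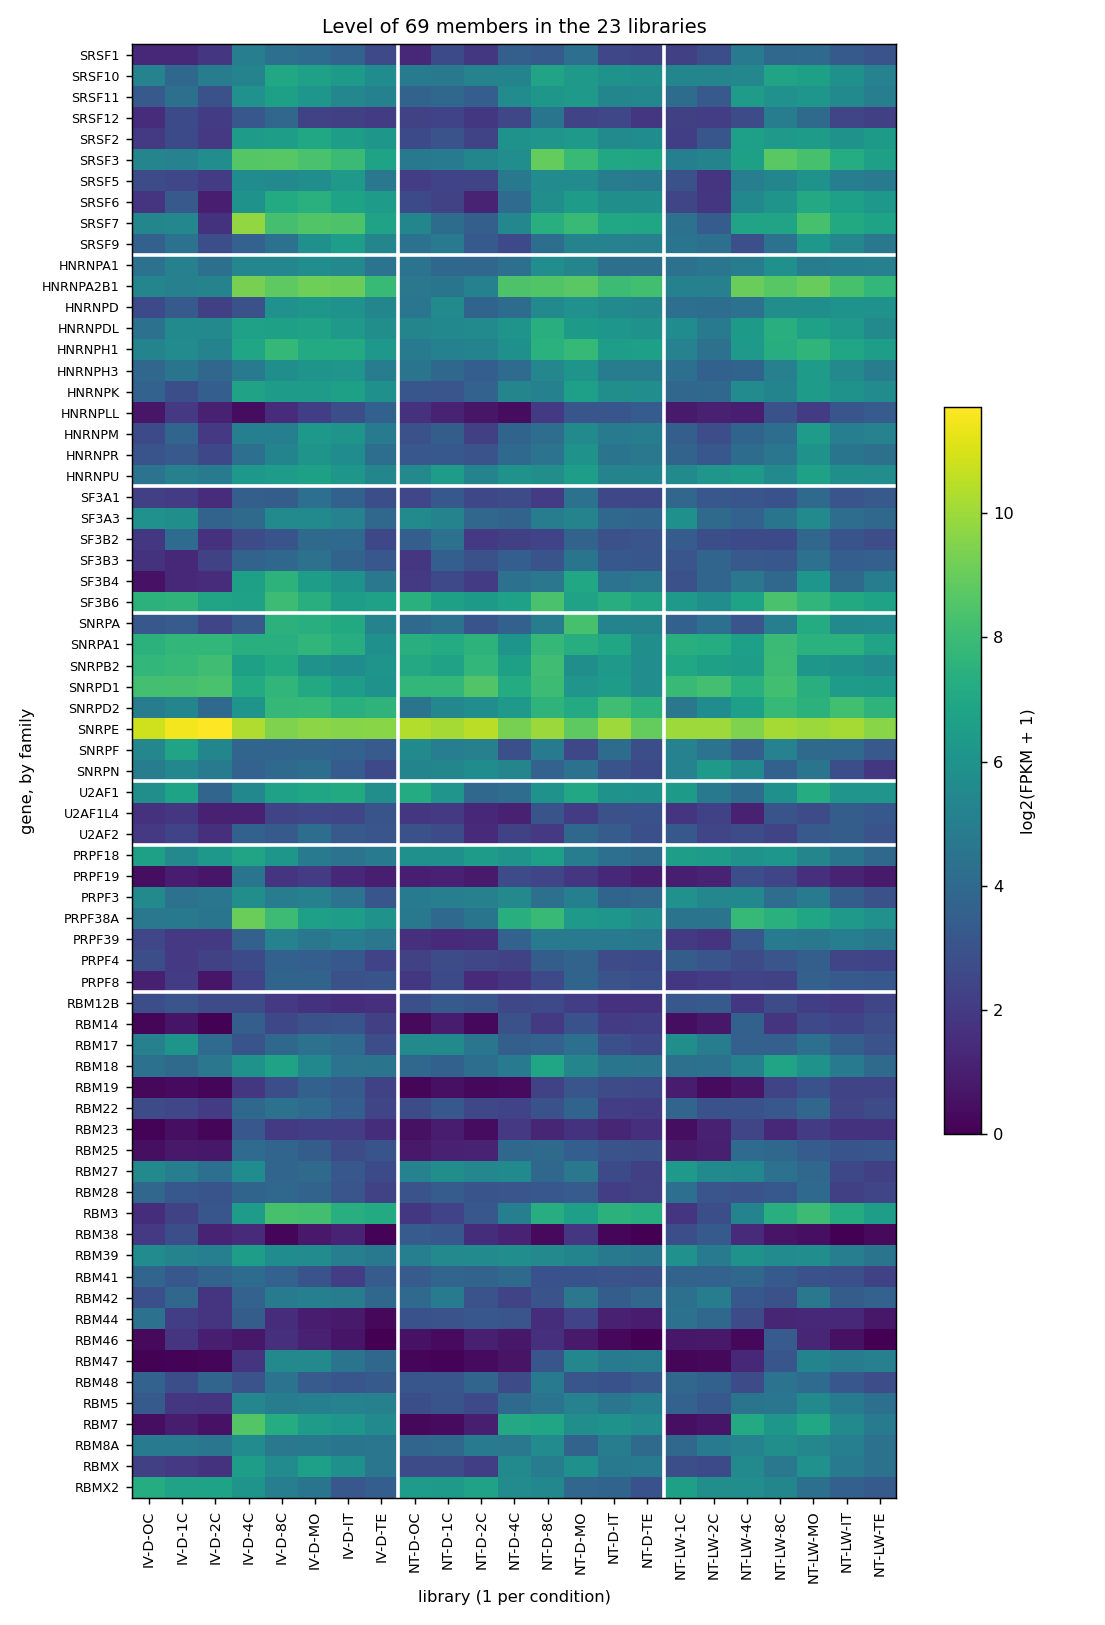
Colour gives log2(FPKM + 1) of 69 of the 70 members (rows, grouped by family, white lines between families) in the 23 libraries (columns, 1 library per condition, white lines between IV-D, NT-D and NT-LW). Most rows of the SRSF and HNRNP families brighten from 2C to 4C in IV-D embryos, while SNRPE is the brightest row and has its highest value, 3327, in the IV-D 2C library.

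On FPKM as deposited, most splicing factor transcripts of IV-D embryos rose between the 2C and the 4C stage. By the fold rule 44 of 70 members were higher at 4C and 6 lower, against 29.2% of all genes higher and 10.4% lower. The median log2 difference was 1.43 over the members and 0.33 over the table. With the libraries scaled by median ratios 30 members were higher and 10 lower, and the table median moved from 0.33 to -0.12. The 14 that no longer passed were SF3B2, SF3B3, HNRNPA1, HNRNPDL, HNRNPH1, HNRNPU, RBM8A, RBM18, RBM27, RBM39, PRPF3, PRPF39, SRSF12 and U2AF1. The median FPKM of the members went from 5.88 at 2C to 31.6 at 4C, after 10.2 in the oocyte and 9.19 at 1C, and was 36.6 at 8C and 43.6 in the morula.

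The other IV-D steps held fewer called members. From OC to 1C 11 were higher and 6 lower (10.7% and 5.95% of all genes), and with median-ratio scaling 8 and 9. From 1C to 2C 1 was higher and 15 lower (5.14% and 19.2%), but after scaling 10 were higher and 11 lower. From 4C to 8C 19 were higher and 9 lower (32.6% and 26.2%), and after scaling 11 and 18, so the larger number changed side. From 8C to MO 2 were higher and 7 lower (10.5% and 11.6%), and from MO to IT 0 and 3 (6.39% and 6.3%). Only the 2C to 4C step of these 6 had a share of higher members over 1.5 times that of the table.

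Both clone groups had fewer higher members at the 2C to 4C step than IV-D embryos, and fewer higher genes in the table as a whole. In IV-D embryos 62.9% of members and 29.2% of all genes were higher. The shares were 30% and 14.6% in NT-D and 34.3% and 14.6% in NT-LW embryos. In NT-D embryos 21 were higher and 8 lower, against 14.6% and 7.07% of all genes, and the median log2 difference was 0.37. In NT-LW embryos 24 were higher and 8 lower, against 14.6% and 17.5%, with a median of 0.27. At 2C the members of the clones lay above those of IV-D embryos by a median log2 difference of 0.23 (NT-D) and 0.45 (NT-LW). Over the table it was 0.19 and 0.48, so the clone steps began from higher values. With median-ratio scaling 20 were higher and 8 lower in NT-D and 27 and 8 in NT-LW, beside the 30 and 10 of IV-D embryos, so the distance between NT-LW and IV-D was smaller on that scale. As deposited, of the 70 members 18 were higher at this step in all 3 groups, 18 in IV-D embryos only, and 25 in none. From 4C to 8C, NT-D embryos had 29 members higher and 6 lower (28.5% and 26.1%) and NT-LW embryos 23 and 6 (25.6% and 23.4%). After median-ratio scaling 21 were higher and 10 lower at that step in NT-LW embryos.

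**Figure D2:**
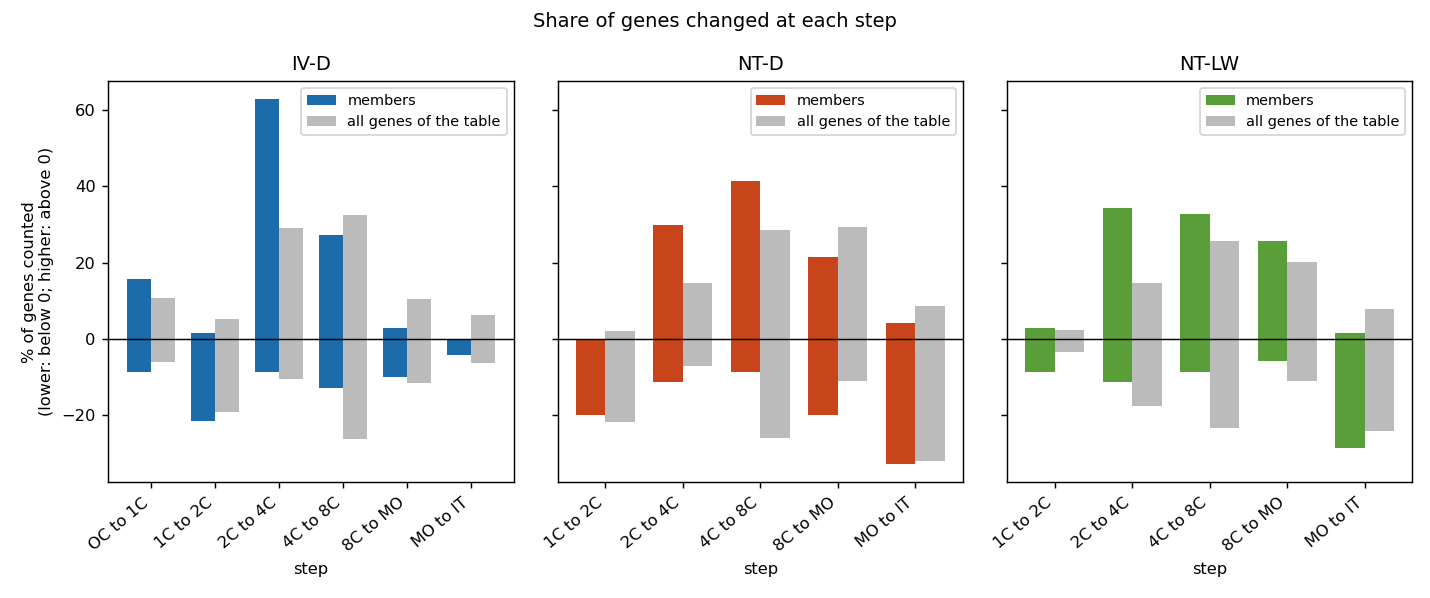
Bars give the percent of genes higher (above 0) and lower (below 0) by the fold rule at each step in the 3 groups, coloured for the 70 members and grey for all 8603 genes of the table. The tallest coloured bar is that of the IV-D 2C to 4C step, 62.9% against 29.2%, and in NT-D embryos the 4C to 8C step has the tallest, 41.4% against 28.5%.

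The clones had more called members around the morula than IV-D embryos, and so did the table as a whole. Summed over both directions, the shares of members called at these steps in clones lay near or below those of all genes. From 8C to MO, 15 members were higher and 14 lower in NT-D embryos (29.3% and 11.1% of all genes), while NT-LW embryos had 18 and 4 (20.1% and 11.1%). With median-ratio scaling the numbers were 9 and 17 in NT-D and 9 and 10 in NT-LW. From MO to IT 3 were higher and 23 lower in NT-D (8.51% and 32%), and 1 and 20 in NT-LW (7.83% and 24.2%). Scaling turned these into 9 higher and 7 lower and into 3 and 5, and moved the median of the whole table by 0.50 and 0.36 at this step. From 1C to 2C 0 members were higher and 14 lower in NT-D (2.01% and 21.7%), which scaling turned into 15 and 5. In NT-LW embryos 2 were higher and 6 lower at that step (2.34% and 3.56%), and 3 and 4 after scaling. The larger number thus changed side with the scaling at 1C to 2C, 8C to MO and MO to IT in NT-D, and at 8C to MO in NT-LW embryos.

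**Figure D3:**
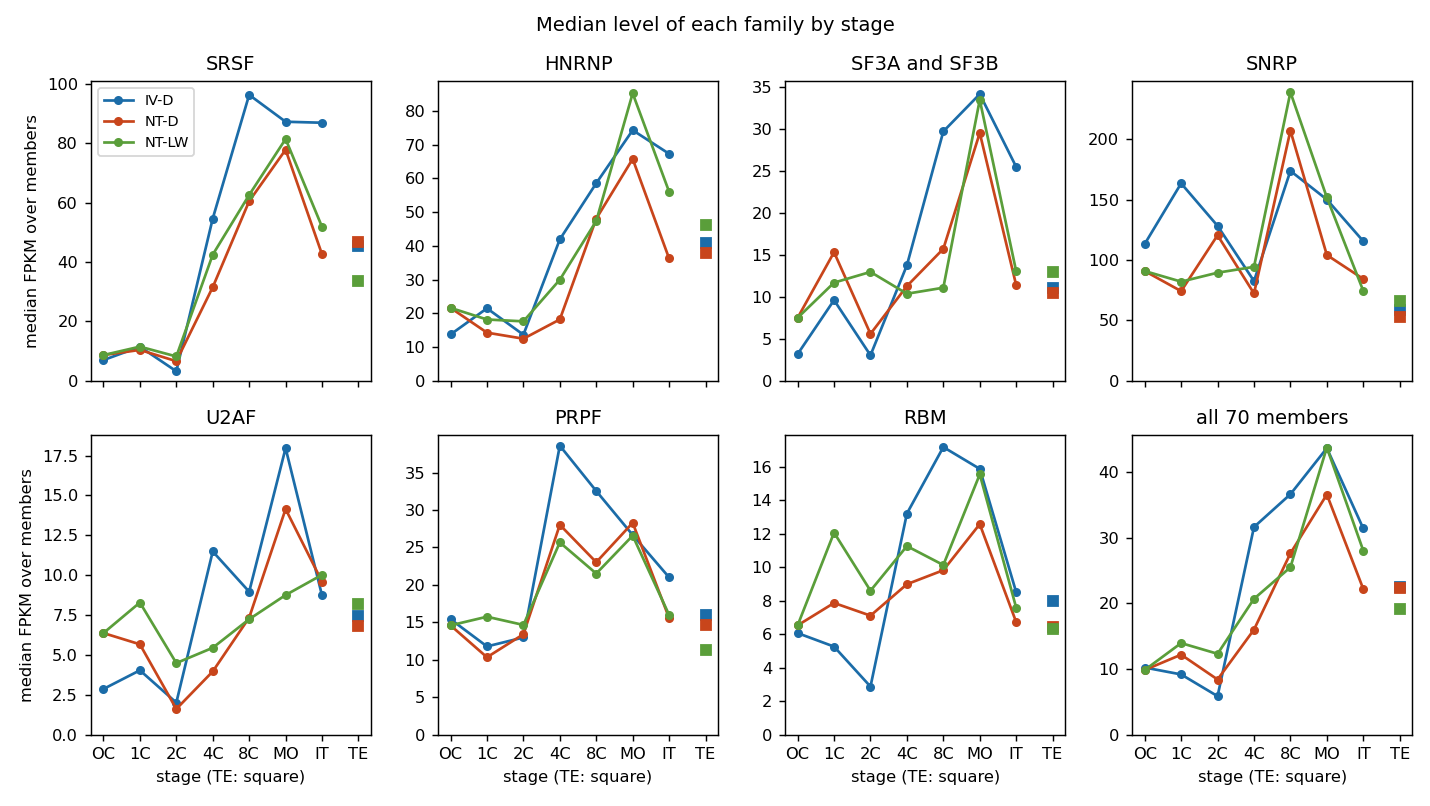
Points give the median FPKM over the members of each family, and over all 70 members, in each library by stage, with the single in vitro matured oocyte library drawn in both clone lines and TE as squares. The SRSF median of IV-D embryos goes from 3.18 at 2C to 54.6 at 4C and 96.3 at 8C, while the SNRP median of IV-D embryos goes from 128 to 82.5 and then 174.

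SR proteins made up the family with the largest rise in IV-D embryos, 8 of 10 members higher and none lower from 2C to 4C, with a median log2 difference of 3.07. NT-D embryos had a median of 1.76 (6 higher), and NT-LW embryos one of 2.59 (7 higher and 1 lower). SRSF7 (ENSSSCG00000008484, chromosome 3, 101599429 to 101608786 in Sscrofa11.1), an SR protein that also takes part in mRNA export, led the family. Its FPKM in IV-D embryos was 40.9 in the oocyte, 41.7 at 1C, 2.26 at 2C, 881 at 4C, 300 at 8C, 365 in the morula, 347 in IT and 104 in TE. In NT-D embryos it was 40.2, 16.5, 10.6, 41.7, 161, 240, 124 and 121 in the same order. In NT-LW embryos it was 20.1 at 1C, 9.45 at 2C, 113 at 4C, 113 at 8C, 308 in the morula, 139 in IT and 109 in TE. The 2C library of IV-D embryos had the lowest value and the 4C library of IV-D embryos the highest of all 23, and neither clone group had its highest value at 4C. The IV-D ratio from 1C to 2C was an 18.5-fold fall (15.5 to 22.1), and that from 2C to 4C a 390-fold rise (330 to 464).

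SRSF3 (ENSSSCG00000001564, chromosome 7, 32289464 to 32298652), the smallest classical SR protein, was at 51.6 in 2C and 396 in 4C IV-D embryos and at 402 in 8C embryos. NT-D embryos went from 40.3 to 52.7 and then to 484, and NT-LW embryos from 37.2 to 99.8 and then to 420. The 8C values of the 3 groups thus lay within 402 to 484, whereas those at 4C lay far apart. The 4C to 8C ratio of NT-D embryos was 9.17 (8.77 to 9.6), and that of NT-LW 4.21 (4.08 to 4.35). Its RefSeq exons overlap those of an uncharacterized gene on the opposite strand over 2576 bases.

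SRSF2, SRSF6, SRSF5 and SRSF1 were low in every library up to 2C and higher at 4C in all 3 groups. SRSF2 (ENSSSCG00000036592) went from 2.85 to 86.3 in IV-D, from 4.36 to 61.3 in NT-D and from 7.65 to 95.5 in NT-LW embryos. Exons of SRSF2 overlap those of METTL23 on the opposite strand over 1364 bases. SRSF6 (ENSSSCG00000007362) went from 0.998 to 64.1, from 1.14 to 15.8 and from 2.60 to 43.3. SRSF5 (ENSSSCG00000032583) went from 3.24 to 49.9, from 4.21 to 25.3 and from 2.33 to 30.8. For SRSF1 (ENSSSCG00000017626), the founding member of the family, the values were 2.64 to 31.2, 2.70 to 10.6 and 5.95 to 27.3. SRSF11, whose protein is known to bind U2AF, reached 59.4, 49.4 and 85.3 at 4C.

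The SR family also held members without this course. SRSF10 (ENSSSCG00000036293), known as a repressor of splicing when dephosphorylated, was at 35.2 in the IV-D oocyte, 14.3 at 1C, 29.9 at 2C, 37.1 at 4C and 123 at 8C, and reached 112 and 115 in the 8C clones. SRSF9 (ENSSSCG00000009906) was at 6.34 in NT-LW 4C embryos after 18.2 at 2C, and at 57.3 in the IV-D morula after 20.0 at 8C. SRSF12 (ENSSSCG00000032781), a rarer family member, peaked at 8C in each group, with 13.4, 22.2 and 30.5 in IV-D, NT-D and NT-LW embryos. It then went to 3.83, 4.23 and 15.4 in the morula, and the NT-LW value was 4.04 times that of the IV-D morula (3.44 to 4.74).

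Of the hnRNP genes 8 of 11 were higher at 4C in IV-D embryos, 4 in each clone group, and none was lower. HNRNPA2B1 (ENSSSCG00000036350, chromosome 18, 46205164 to 46215861), a binder of exonic and m6A-marked RNA, had the highest median of the family. It was at 39.0, 33.0, 37.0, 627, 451, 563, 531 and 235 from OC to TE in IV-D embryos. The NT-D values from OC to TE were 23.7, 22.3, 34.5, 341, 362, 413, 260 and 281, and those of NT-LW from 1C were 34.4, 32.9, 519, 401, 498, 315 and 213. All 8 libraries up to 2C lay at or below 39.0, and every library from 4C on lay at 213 or above. Its exons overlap those of NFE2L3 on the opposite strand over 2470 bases.

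HNRNPK (ENSSSCG00000022760), an hnRNP with KH domains, went from 10.3 to 107 in IV-D, from 11.6 to 38.8 in NT-D and from 14.4 to 49.5 in NT-LW embryos. HNRNPA1 (ENSSSCG00000000288), a repressor of exon use with many processed copies in mammalian genomes, went from 19.0 to 41.9, 13.7 to 18.2 and 23.4 to 30.0, and its values are uncertain where such copies share reads. HNRNPM (ENSSSCG00000013602) was at 2.82 and 32.0 in IV-D embryos and reached 74.3, 45.8 and 85.2 in the IV-D, NT-D and NT-LW morulae. HNRNPH1 had its highest value, 229, in the NT-D morula, and HNRNPDL its highest, 159, in NT-D 8C embryos. HNRNPU, a nuclear matrix binder, was at 75.0 in IV-D 4C embryos, HNRNPR at 18.1 and HNRNPH3 at 26.7.

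HNRNPD (ENSSSCG00000009249), also called AUF1 and known for binding AU-rich elements of unstable mRNAs, stood higher in 4C clones than in IV-D embryos. It was at 6.57 in IV-D 4C embryos and at 16.5 and 19.7 in the NT-D and NT-LW ones. No group passed the rule from 2C to 4C, and every group was higher from 4C to 8C. The IV-D 8C value was 58.6, an 8.92-fold step (7.66 to 10.4), and those of NT-D and NT-LW were 48.1 and 53.3. The in vitro matured oocytes stood at 22.9 and the in vivo oocytes at 5.15. HNRNPLL was low throughout, from 0.308 in NT-D 4C to 11.5 in IV-D TE.

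Genes of the SNRP family were more often lower than higher at this step, whereas 8 of 13 listed genes of further U snRNP proteins were higher and 1 was lower in IV-D embryos. Of the 8 SNRP genes 1 was higher and 5 were lower at 4C in IV-D embryos, with a median log2 difference of -1.17, and 0 were higher in either clone group, with 5 lower in NT-D and 1 in NT-LW. SNRPE (ENSSSCG00000023562), the Sm protein E of the ring, was the highest member of all, with an FPKM of 1844 in the IV-D oocyte, 2867 at 1C, 3327 at 2C, 1251 at 4C and 688 at 8C. In NT-D embryos it went from 1439 at 2C to 633 at 4C and in NT-LW embryos from 1014 to 686. It had no single position in the RefSeq annotation, its gene is 446 bases long in the table, and reads of near-identical copies could add to it.

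SNRPD1, another Sm protein, went from 328 to 143 in IV-D, 372 to 145 in NT-D and 291 to 173 in NT-LW embryos. SNRPB2 (ENSSSCG00000037602), the U2 B″ protein, went from 276 to 99.4, 213 to 98.7 and 98.2 to 92.4. SNRPF (ENSSSCG00000000895, chromosome 5, 87614934 to 87622863), the Sm protein F, went from 40.7 to 13.2, 33.5 to 6.27 and 20.7 to 10.8. The IV-D falls of SNRPF and SNRPB2 were 3.08-fold (2.75 to 3.46) and 2.78-fold (2.64 to 2.92), and they were larger with median-ratio scaling. SNRPA1, the U2 A′ protein, went from 188 to 64.7 in NT-D embryos and from 216 to 163 in IV-D embryos, where it did not pass the rule.

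SNRPB2 and SNRPF stood higher in 8C clones than in IV-D embryos of that stage. SNRPB2 was at 277 in NT-D and 257 in NT-LW 8C embryos and at 135 in the IV-D ones, and SNRPF at 27.6, 35.7 and 13.2. The clones then had 55.4 and 72.9 (SNRPB2) and 4.87 and 15.3 (SNRPF) in the morula, while the IV-D morula had 61.0 and 13.3. SNRPD2 was the SNRP gene that was higher at the IV-D 4C step, from 15.2 to 65.7.

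SNRPA (ENSSSCG00000002998, chromosome 6, 48971868 to 48982369), the U1 A protein, rose a stage later than SRSF7. In IV-D embryos it was at 7.92, 9.33, 4.42, 8.65, 182, 162, 136 and 36.4 from OC to TE. In NT-D embryos it was at 15.0, 19.8, 7.18, 11.3, 29.8, 311, 37.8 and 36.8, and in NT-LW embryos from 1C at 11.5, 18.6, 7.59, 31.4, 144, 45.7 and 49.4. The IV-D value rose 21.0-fold at 8C (17.4 to 25.5). The clones had their largest step from 8C to MO, 10.4-fold in NT-D (9.5 to 11.5) and 4.57-fold in NT-LW (4.12 to 5.08).

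SNRPN (ENSSSCG00000028124), an Sm protein gene that is imprinted in mammals, was the member furthest above IV-D in 4C clones. It was at 11.7 in IV-D, 39.4 in NT-D and 45.5 in NT-LW 4C embryos, after 27.0, 50.8 and 80.7 at 2C. At 8C the values were 14.8, 11.7 and 11.5. Both clone groups stood above IV-D at 2C and at 4C, where the ratios were 3.37 (3.13 to 3.65) and 3.89 (3.62 to 4.19), and below it at 8C.

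Of the SF3 genes 4 of 6 were higher at the IV-D 4C stage and 1 in each clone group. SF3B4 (ENSSSCG00000006665, chromosome 4, 99123564 to 99129218), a branch-point protein of U2 snRNP, was at 0.491, 1.57, 1.80, 99.9, 186, 91.3, 62.0 and 24.5 from OC to TE in IV-D embryos. The NT-D values were 2.94, 4.98, 3.04, 20.5, 24.2, 127, 20.9 and 24.7, and those of NT-LW from 1C 6.57, 13.0, 24.3, 14.2, 70.5, 15.7 and 28.8. The IV-D library stood above both clones at 4C, 8C and IT and below NT-D in the morula. From 8C to MO the IV-D value fell by 1.02 on the log2 scale and those of NT-D and NT-LW rose by 2.34 and 2.23.

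SF3B6, the branch-point protein p14, was high throughout (53.1 to 325). SF3B2 (ENSSSCG00000012957) went up from OC to 1C in IV-D embryos, from 2.74 to 16.1 (5.89-fold, 5.19 to 6.71), and back to 2.14 at 2C. In NT-D it went from 20.3 at 1C to 3.02 at 2C. SF3A3 stood at 45.5 to 59.9 in the oocytes and at 12.0 to 15.4 in every 2C and 4C library. SF3A1 and SF3B3 ranged from 1.84 to 19.8 and from 1.57 to 22.3, with both of the highest values in the NT-D morula. SF3B1 and SNRPB were not analysed here.

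U2AF1 (ENSSSCG00000033653), the small subunit of U2AF that reads the AG at the 3′ end of introns, was high up to 1C, lower in every 2C library and high again from 8C. It was at 54.2, 110, 13.1, 42.5, 103, 117, 137 and 54.4 from OC to TE in IV-D embryos. In NT-D embryos the values were 145, 67.9, 14.6, 16.9, 62.4, 125, 63.8 and 57.3. NT-LW embryos from 1C had 82.8, 25.5, 16.6, 58.3, 150, 67.5 and 67.5. By the fold rule it was higher in IV-D embryos at 4C and again at 8C, and in both clone groups at 8C and not at 4C. With median-ratio scaling the IV-D log2 differences went from 1.63 to 0.85 (4C) and from 1.25 to 0.86 (8C), neither past the rule, while those of the clones at 8C stayed past it at 1.52 and 1.49. U2AF2, the large subunit, went from 2.01 to 11.5 at the IV-D 4C stage, from 1.62 to 3.97 in NT-D and from 4.49 to 5.45 in NT-LW embryos, and U2AF1L4 had its lowest value, 1.08, in both 4C clone libraries.

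PRPF genes were higher in 5 of 8 cases at the IV-D 4C stage, in 3 of 8 in each clone group, and none was lower. PRPF38A (ENSSSCG00000028288, chromosome 6, 159798692 to 159819252), needed to activate the assembled spliceosome, went from 22.1 to 546 in IV-D, from 22.2 to 167 in NT-D and from 21.9 to 231 in NT-LW embryos. PRPF19 (ENSSSCG00000013107), the ubiquitin ligase of the complex that bears its name, had a brief high value of 22.5 in IV-D 4C embryos between 0.612 at 2C and 2.40 at 8C. In the clones it reached 5.53 and 5.92 at 4C and was still at 4.52 in both 8C libraries. PRPF8, the core of the spliceosome, was low, from 0.621 at IV-D 2C to 12.6 in the NT-D morula.

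PRPF3, a tri-snRNP protein, was at 46.6 in the IV-D oocyte, 54.7 at 4C and 7.75 in TE. PRPF18, a second-step factor, went from 73.2 at 8C to 28.2 in the IV-D morula. PRPF39, a U1 protein, rose in all 3 groups at 4C, to 11.1, 11.9 and 7.97, and PRPF4 remained between 2.85 and 12.2.

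The RBM group had 16 of 24 genes higher and 1 lower at 4C in IV-D embryos, 7 and 3 in NT-D and 9 and 5 in NT-LW embryos. RBM7 (ENSSSCG00000027905, chromosome 9, 41947081 to 41955683), a subunit of the complex that hands nuclear RNA to the exosome, rose from under 1 in every earlier library. In IV-D embryos its FPKM was 0.356, 0.839, 0.477, 381, 149, 84.2, 70.3 and 46.0 from OC to TE. In NT-D embryos it was 0.185, 0.261, 0.956, 131, 121, 56.7, 63.5 and 48.9, and in NT-LW embryos from 1C 0.393, 0.604, 141, 73.3, 125, 47.1 and 26.7. All 3 groups thus reached their highest value at 4C, with the IV-D value 381 against 131 and 141. The IV-D 2C library held 26 fragments and the 4C library 14315. Its exons overlap those of C9H11orf71 on the opposite strand over 397 bases.

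RBMX (ENSSSCG00000012703), the X-linked gene of hnRNP G, went from 2.31 to 92.5 in IV-D, 3.57 to 47.4 in NT-D and 5.25 to 47.7 in NT-LW embryos. RBM3 (ENSSSCG00000021591), a cold-inducible protein and also X-linked, went from 7.81 to 84.5 and then 313 in IV-D 8C embryos, and to 157 and 160 in the 8C clones. RBM5, a regulator of exon choice in apoptosis genes, went from 2.49 to 41.6, 5.07 to 14.8 and 8.36 to 21.6. RBM14, RBM23 and RBM25 had 4C values of 10.5, 8.03 and 16.2 in IV-D embryos after 0.0480, 0.109 and 0.676 at 2C, and were higher at 4C in both clone groups as well.

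RBM47 (ENSSSCG00000008796, chromosome 8, 31508133 to 31690757), a cofactor of RNA editing, was at or below 0.249 in every library up to 2C. In IV-D embryos it was at 0.127 at 2C, 2.49 at 4C, 43.9 at 8C and 44.5 in the morula. NT-D embryos had 0.249, 0.540, 7.76 and 42.1, and NT-LW embryos 0.200, 1.52, 7.64 and 37.5. At 8C both clone libraries stood below 8 where IV-D stood at 43.9, and in the morula the 3 values lay between 37.5 and 44.5.

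RBM44 and RBM27 belonged to the genes with high early values. RBM44 (ENSSSCG00000016332), known from germ cells, was at 19.7 in the IV-D oocyte and 6.76 in the in vitro matured one, and at 0.181 to 0.847 in TE. RBM27 was at 50.6 in IV-D 4C embryos and 13.2 at 8C, and at 46.2 and 14.2 in NT-D embryos. RBMX2 had its highest value, 150, in the IV-D oocyte and was at 8.01 in IV-D IT after 22.4 in the morula. RBM17, a U2-associated factor, was highest at IV-D 1C (65.1) and was the RBM gene lower at the IV-D 4C stage, from 16.2 to 7.12.

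RBM8A (ENSSSCG00000028509), the Y14 protein of the exon junction complex, was at 48.9 in IV-D 4C embryos and at 49.7 and 53.2 in the 8C clones. Exons of RBM8A overlap those of GNRHR2 on the opposite strand over 1229 bases. RBM42 went from 27.5 to 6.89 between NT-D 1C and 2C and from 29.0 to 8.21 between NT-LW 2C and 4C. RBM28 was at 3.62 in NT-LW IT after 15.2 in the morula, and RBM48 at 27.6 in NT-D 8C embryos after 5.51. RBM18 and RBM39 reached 119 (NT-D 8C) and 89.2 (IV-D 4C). RBM12B, RBM19, RBM22 and RBM41 had highest values of 9.01, 11.3, 19.8 and 16.5. RBM38 was highest in the in vitro matured oocyte (9.44), and RBM46 reached 1 in only 7 libraries, with 9.20 at NT-LW 8C.

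**Figure D4:**
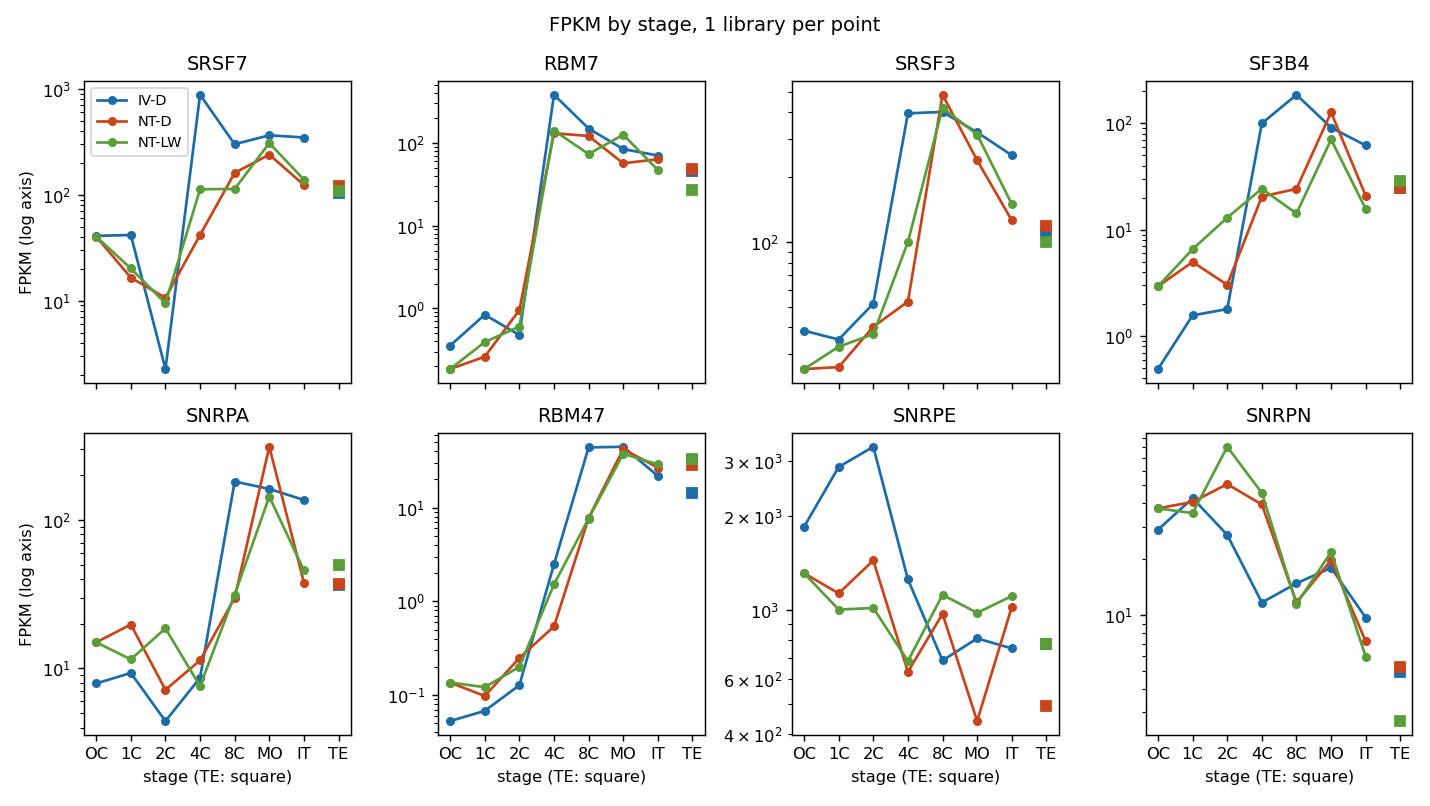
Each panel gives the FPKM of 1 gene on a log axis by stage in IV-D, NT-D and NT-LW embryos, with 1 library per point, the single in vitro matured oocyte library in both clone lines and TE as squares. SRSF7, SRSF3 and SF3B4 separate IV-D from the clones at 4C, SNRPA and RBM47 separate them at 8C, and SNRPE and SNRPN are lower at 4C than at 2C in all 3 groups.

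The 250 bases before the RefSeq gene start were read for 66 of the 70 members, and those of RBM7, SF3B4 and SNRPF are shown because the first pair rose and SNRPF fell at the same step. They were searched on both strands for the TATA box as TATAAA, for the CCAAT box, for the ETS-type letters CCGGAAG and for the NRF1-type letters GCGCATG. Capitals mark every match, and the sequences are from RefSeq, build Sscrofa11.1, read in the direction of the gene.
RBM7, chr9:41946831-41947080, plus strand: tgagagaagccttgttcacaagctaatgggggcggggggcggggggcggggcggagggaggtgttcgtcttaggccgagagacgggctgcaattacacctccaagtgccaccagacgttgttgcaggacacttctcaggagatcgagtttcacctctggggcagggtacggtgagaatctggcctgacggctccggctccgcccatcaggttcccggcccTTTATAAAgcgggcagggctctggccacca
SF3B4, chr4:99123314-99123563, plus strand: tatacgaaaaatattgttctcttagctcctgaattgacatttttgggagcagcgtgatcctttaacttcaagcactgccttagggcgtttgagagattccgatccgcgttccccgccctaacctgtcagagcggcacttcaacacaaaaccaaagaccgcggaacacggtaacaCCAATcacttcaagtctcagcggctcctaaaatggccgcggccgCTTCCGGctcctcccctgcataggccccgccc
SNRPF, chr5:87622864-87623113, minus strand: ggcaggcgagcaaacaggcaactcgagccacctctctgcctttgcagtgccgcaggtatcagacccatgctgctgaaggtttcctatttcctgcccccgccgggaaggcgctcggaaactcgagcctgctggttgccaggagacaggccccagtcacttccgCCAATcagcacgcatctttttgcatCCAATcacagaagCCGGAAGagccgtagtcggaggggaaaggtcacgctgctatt

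The RBM7 window held TATAAA on both strands, as 2 overlapping matches. TATAAA was in 3 of 66 member windows (4.55%), against 7.52% of windows of table genes and 9.76% of the 19497 of protein-coding genes. CCAAT was in 24 (36.4%), against 34.3% and 31.9%. CCGGAAG was in 15 member windows (22.7%), against 11.5% of the windows of genes of the table and 7.77% of all. GCGCATG was in 5 (7.58%), against 4.61% of the windows of genes of the table and 3.32% of all. Among the 42 windows of members higher at the IV-D 4C step, CCGGAAG was in 8 (19%), and among the other 24 in 7 (29.2%). GCGCATG was in 1 of the 42 (2.38%) and in 4 of the 24 (16.7%). The SRSF7 window held none of the 4 and had 36.8% GC and 1 CpG, where the member medians were 58.4% and 17, and its annotated start was not checked against transcript ends. A match is a description of letters only.

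Set against IV-D embryos of the same stage, 4C clones had lower levels of many splicing factors. In NT-D embryos 24 members were lower and 2 higher, against 11.5% of all genes lower and 8.5% higher, and the median log2 difference was -0.68 over the members and 0.00 over the table. In NT-LW embryos 12 were lower and 2 higher (8.26% and 9.45%), with medians of -0.44 and 0.04. Median-ratio scaling gave 22 lower and 2 higher in NT-D and 13 and 2 in NT-LW. Both comparisons share the IV-D library.

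SRSF7 was 21.1-fold lower in NT-D (20.1 to 22.2) and 7.82-fold lower in NT-LW 4C embryos (7.6 to 8.04). SRSF3 was 7.51-fold (7.18 to 7.87) and 3.97-fold lower (3.84 to 4.1), and SF3B4 4.87-fold (4.56 to 5.21) and 4.11-fold (3.89 to 4.36). PRPF19, PRPF38A, RBM7, RBM3, RBM19, HNRNPK, HNRNPM and U2AF1 were lower in both clone groups too. The 2 higher members were SNRPN and HNRNPD in both. Oocyte markers summed to 403 in IV-D, 1556 in NT-D and 1489 in NT-LW 4C embryos, all 6 being at 1 or more in each, and fibroblast markers to 5.48, 31.5 and 30.6. Their part in the differences was not tested.

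Of the 44 members that were higher at the IV-D 2C to 4C step, 21 were higher at the same step in NT-D embryos, 11 only at 4C to 8C and 12 at neither. In NT-LW embryos the numbers were 23, 5 and 16. Over the 2508 genes of the table chosen the same way, 40.8% were higher at the same step in NT-D and 39.8% in NT-LW, and 19.8% and 11.7% only at the next. The member shares were 47.7% and 52.3% at the same step and 25% and 11.4% at the next. Since the 44 were selected on IV-D values, lower shares elsewhere follow in part from that choice. The 11 later in NT-D were HNRNPA1, HNRNPDL, HNRNPH1, RBM18, RBM19, RBM47, RBM8A, SNRPD2, SRSF12, SRSF3 and U2AF1. RBM18, RBM19, SNRPD2, SRSF12 and U2AF1 were also the 5 of NT-LW. These lists are on FPKM as deposited and depend on the scale. With median-ratio scaling HNRNPA1, HNRNPDL, HNRNPH1, RBM18, RBM8A, SRSF12 and U2AF1 no longer passed the rule at the IV-D 2C to 4C step. At 4C to 8C in NT-D the scaled log2 differences of HNRNPDL, RBM8A and SNRPD2 were 0.98, 0.70 and 0.95, short of the rule. That of SNRPD2 in NT-LW was 0.97.

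**Figure D5:**
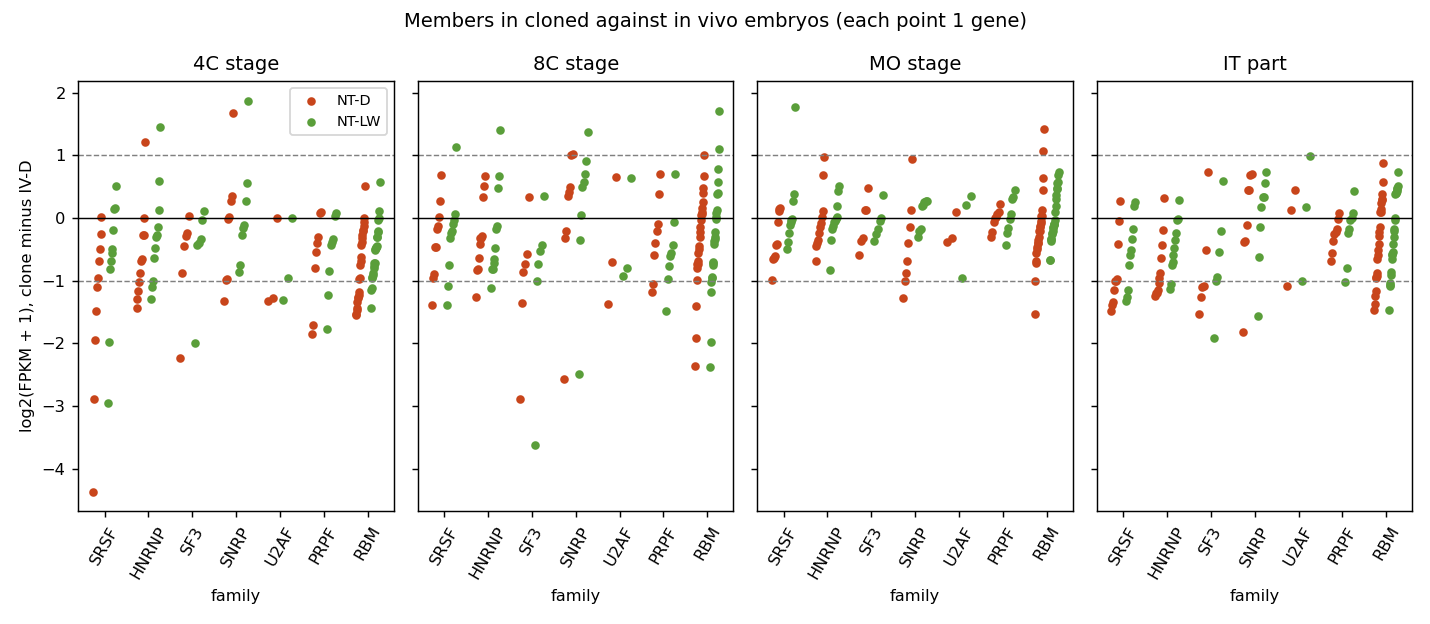
Each point is 1 member, placed by family, and the vertical axis gives log2(FPKM + 1) in NT-D or NT-LW embryos minus that in IV-D embryos at 4C, 8C, MO and IT, with the fold rule at the dashed lines. At 4C 24 NT-D and 12 NT-LW points lie below the lower line, and in the morula 4 and 0.

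At 8C 11 members were lower in each clone group, 2 higher in NT-D and 5 in NT-LW. The shares of all genes were 15.1% lower and 9.38% higher in NT-D and 15.3% and 14.5% in NT-LW, so the lower members lay near the background and the higher ones below it. Median-ratio scaling gave 9 lower and 3 higher in NT-D, and 8 lower and 6 higher in NT-LW. SF3B4 was 7.67-fold lower in NT-D (7.27 to 8.08) and 13.1-fold lower in NT-LW (12.1 to 14.1), SNRPA 6.08-fold (5.53 to 6.71) and 5.78-fold (5.22 to 6.4), and RBM47 5.65-fold (5.21 to 6.15) and 5.74-fold (5.25 to 6.28).

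In the morula 4 members were lower and 2 higher in NT-D (3.55% and 17.1% of all genes), and 0 lower and 1 higher in NT-LW (3.5% and 10%). After scaling NT-D had 6 lower and 1 higher, and NT-LW 2 and 1. RBM3, at 283 in IV-D and 97.3 in NT-D morulae, was the lower member with the largest difference. RBM44 and RBM38 were the 2 higher in NT-D, at 4.07 against 0.900 and 2.66 against 0.753, and both were named after their values were seen. The oocyte markers summed to 6.88 in IV-D, 172 in NT-D and 28.3 in NT-LW morulae, and their part was not tested.

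In IT the members of both clone groups lay below IV-D again, 21 lower and 0 higher in NT-D (12.7% and 7.81%) and 14 and 0 in NT-LW (11.3% and 7.17%). Median-ratio scaling left 15 lower in NT-D, and 9 lower and 1 higher in NT-LW. Both comparisons share the single IV-D IT library. The TE parts lay closer, with median log2 differences from IV-D of -0.03 (NT-D) and 0.05 (NT-LW) over the members. In IT these medians were -0.47 and -0.28. Over the table the TE medians were -0.01 and -0.07. SNRPA was at 136 in IV-D, 37.8 in NT-D and 45.7 in NT-LW, SF3B4 at 62.0, 20.9 and 15.7, and SRSF7 at 347, 124 and 139. By family 6 of 10 SRSF, 5 of 11 HNRNP and 4 of 6 SF3 genes were lower in NT-D, and 1 of 8 SNRP genes. The IT libraries held trophectoderm too, and their inner cell mass markers (3 of 5 in the table) summed to 59.1 in IV-D, 40.6 in NT-D and 43.4 in NT-LW. The share of cells and the level per cell cannot be told apart in such pools.

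Between oocytes the in vitro matured library had 7 members higher and 1 lower than the in vivo one, against 10.5% and 1.19% of all genes, and 5 higher and 9 lower after median-ratio scaling. HNRNPD, SF3B2 and U2AF1 were higher, at 22.9 against 5.15, 10.3 against 2.74 and 145 against 54.2, and RBM44 was lower, at 6.76 against 19.7. In NT-LW 1C embryos, made from in vitro matured oocytes as well, RBM44 was at 20.3. The oocyte libraries also differed in the breed of the sows, Duroc for the in vivo one and hybrid for the other.

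The TE part of IV-D blastocysts had lower levels of splicing factors than the IT part. There 22 members were lower and 1 higher, against 14.9% and 8.1% of all genes, with a median log2 difference of -0.61 over the members and -0.13 over the table. SNRPA went from 136 to 36.4 (3.74-fold, 3.38 to 4.15), SRSF7 from 347 to 104 (3.32-fold, 3.21 to 3.44) and SRSF5 from 76.5 to 25.1 (3.05-fold, 2.86 to 3.26). The 1 higher was RBM41, named after its value was seen. In NT-D blastocysts 0 members were higher and 3 lower (0.302% and 3.39%), and in NT-LW 0 in either direction (0.93% and 4.01%). The TE libraries of the 3 groups had member medians of 22.4, 22.4 and 19.1, and those of IT 31.4, 22.2 and 28.0. The IV-D IT library is also the one that the clone IT parts were set against above, so these results are not independent.

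By the stage of the highest value, with the blastocyst as IT, 17 members peaked at 4C in IV-D embryos, 6 in NT-D and 12 in NT-LW. The shares of all genes that peaked there were 15.3%, 10.4% and 9.94%. The morula held the peak of 17 IV-D, 28 NT-D and 24 NT-LW members, against 13.0%, 23.1% and 23.5% of the table. With median-ratio scaling the 4C numbers were 17, 10 and 14.

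Other genes of splicing were counted from a list of 138, of which 110 were in the table. From 2C to 4C 52 were higher and 9 lower in IV-D embryos, 25 and 7 in NT-D, and 27 and 13 in NT-LW. The shares of all genes were 29.2% and 10.4%, 14.6% and 7.07%, and 14.6% and 17.5%. In IV-D embryos 19 of 40 kinases and regulators, 11 of 21 Prp19 and step factors and, as given above, 8 of 13 further U snRNP proteins were higher, while the LSM ring had 1 of 8 higher and 2 lower. At 4C 22 of the list were lower and 2 higher in NT-D than in IV-D embryos, and 13 and 4 in NT-LW (11.5% and 8.5%, and 8.26% and 9.45%, of all genes).

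Of 10 listed partners of RBM7, which include subunits of the nuclear exosome, 6 were higher and 1 was lower at the IV-D 4C step. The exosome subunits EXOSC10 and EXOSC3 had the largest log2 differences of the list there. EXOSC10 went from 0.406 to 58.9 in IV-D, 0.459 to 20.4 in NT-D and 0.520 to 26.1 in NT-LW embryos, and EXOSC3 from 0.212 to 48.7, 0.537 to 12.3 and 0.892 to 23.2. The lower one was EXOSC9, another subunit, named after its values were seen, which went from 49.2 to 19.8 in IV-D embryos. LSM3 fell from 255 to 58.5 and UPF3B, which links the exon junction complex to mRNA decay, from 48.4 to 12.1 in IV-D embryos. From 4C to 8C GEMIN2, an assembly factor of the SMN complex, went from 1.26 to 83.1, 3.50 to 133 and 2.56 to 111 in IV-D, NT-D and NT-LW embryos. LSM4 went from 6.72 to 144, 12.6 to 48.1 and 12.6 to 49.2. SRPK1, the kinase of SR proteins, went down from 193 to 35.8, 242 to 43.5 and 221 to 66.8, and KHDRBS3 from 18.1 to 1.85 in IV-D embryos.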

How the data were processed

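RNA of pooled porcine oocytes and embryos was measured in 23 libraries, 1 per condition, grouped by their GEO labels. Per the study's methods, cDNA was made with the SMART-Seq v4 kit and read pairs were aligned to Sscrofa11.1 with HISAT2 2.0.4 and counted per Ensembl gene with HTSeq 0.9.1. The authors deposited FPKM values for 8603 genes, by the table's name differentially expressed ones. How these were chosen, and whether counting used strand, are not given in the sources used here, so counts hold within this table and reads of a gene and an antisense partner cannot be told apart. Exons of 17 members overlap those of another RefSeq gene, and not all of these are marked above.

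Members, lists and the rule for named genes were chosen with earlier results of these data known. Named were, per comparison, the 3 called members of largest difference in each direction with FPKM of at least 10 in one library, the 2 highest members per family, 14 genes fixed by name (12 in the table), members called oppositely in IV-D and both clone groups, and 2 other splicing genes per direction at the IV-D 2C to 4C and 4C to 8C steps. The other members were named to account for the 70, except 1 PRPF gene that is in every count but is not reported singly here.

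The fold rule and a pseudocount of 1, which understates changes of low genes, were applied to FPKM as deposited. With 1 library per condition in this table no test between conditions exists and no p-value is given. Fragments came out whole within 0.05 for 100% of genes, and a count of 0 allows up to 3 fragments. The reads carry no molecular identifiers. An exact binomial test on these fragments, with adjusted p under 0.005, compares libraries and not conditions, and served as an alternative beside a pseudocount of 0.1, a minimum FPKM of 5 or none, median-ratio scaling, and TE in place of IT. The calculations were tested on simulated data. Positions and sequences are from RefSeq on Sscrofa11.1, with 68 of 70 members placed. Tools were pysam 0.24.0, scipy 1.17.1, matplotlib 3.10.9, pandas 2.3.3 and numpy 2.4.6 in Python 3.11.15.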

Additional observations from a re-analysis of the deposited data

Results flagged for a closer look

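SF3B4, a branch-point protein of U2 snRNP, went opposite ways in clones and IV-D embryos from the 8C stage to the morula. The log2 difference of FPKM + 1 was -1.02 in IV-D embryos, against 2.34 (NT-D) and 2.23 (NT-LW) in the clones, with FPKM of 186 and 91.3, 24.2 and 127, and 14.2 and 70.5. With 1 library per condition the difference between groups was not tested. The IV-D value lies just past the limit of the fold rule, and was -1.01 with median-ratio scaling.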

How the results depend on the processing

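Of 139 alternative values for 29 counts, 126 lay within 1.5 times the reported one. The other 13 were as follows. For IV-D 1C to 2C the exact binomial test counted 26 members in place of 16. For IV-D MO to IT a pseudocount of 0.1 gave 6, median-ratio scaling 1 and the binomial test 6, in place of 3. For MO to IT in clones median-ratio scaling gave 16 in place of 26 (NT-D) and 8 in place of 21 (NT-LW). Between oocytes, where the reported count was 8, the pseudocount of 0.1 gave 15, scaling 14 and the binomial test 17. For NT-LW against IV-D morulae the same 3 gave 2, 3 and 2 in place of 1. The number of NT-D members highest at 4C was 10 in place of 6 with scaling. Counts without a minimum FPKM equal the reported ones by construction, since a difference over 1 with a pseudocount of 1 needs an FPKM over 1. The 2C to 4C and 4C comparisons kept more higher or more lower members, in the same direction, under scaling. The causes were not tested.

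No paired analysis was possible because each condition has 1 library in this table. Leaving out a replicate was not possible for the same reason. Depth limits only the lowest members. RBM7 had 8 to 41 fragments per library up to 2C and RBM46 0 to 1 in TE, so their folds there are imprecise. Counting error does not include variation between pools of embryos.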
